A study of Mus musculus with 4 samples.

Results

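The Spalt-like family of the mouse has 4 members, Sall1, Sall2, Sall3 and Sall4, and all 4 were taken by symbol from a count table of 34682 genes. They encode zinc-finger transcription factors that act in the nucleus, largely as repressors. A short conserved motif at the amino end of these proteins binds the nucleosome remodelling and deacetylase complex (NuRD), which couples chromatin remodelling to histone deacetylation. Sall1 is required for the outgrowth of the kidney and marks its nephron progenitors, Sall4 is a factor of embryonic stem cells and germ cells, Sall2 is broadly expressed and the most divergent member, and Sall3 acts in the limb and nervous system.

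RNA was sequenced from developing ovaries at the embryonic day E13.5, in 4 libraries. The 2 mutant libraries carried the genotype Mutant and the treatment Sall1 overexpression, and the 2 wild-type libraries the genotype Wt with no treatment named, with replicate numbers 1 and 2 in each group. The mutants were made with a bacterial artificial chromosome (BAC) that places the mouse Sall1 coding sequence under the promoter and regulatory elements of Wt1, a gene active in the somatic cells of the gonad. The construct was inserted with the piggyBac transposon into a female embryonic stem cell line from C57BL/6J mice, and embryos came from morula aggregation of these cells. The animal section of the methods also names a C57BL/6J-129 hybrid background for such cells. Transgene activity was thus aimed at cells that use Wt1, and germ cells were not its target. The study's results describe the controls as littermates, its methods state CD1 gonads for RNA sequencing, and the wild-type column names contain B6, so strain and genotype cannot be told apart. Neither the number of ovaries per library nor separate litters are stated, and p-values then measure the spread between these libraries, which may be technical.

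Total counts lay between 11036313 and 17869840, and the smallest count taken as present, 3, equalled 0.170 to 0.272 CPM (counts scaled to the library size over the tested genes, after TMM normalization). Such floors and the intervals on shares cover counting error only. In the edgeR quasi-likelihood test, 2 of 15442 genes were called higher in the mutants and 7 lower at an adjusted p under 0.05. The germ cell marker Dazl was at 618 to 777 CPM and the pre-granulosa marker Fst at 157 to 180 CPM, so both main cell classes of an ovary of this age were measured. The 3 Sertoli cell markers summed to between 4.53 and 5.90 CPM.

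Identical runs between the transcripts of the members were short, as read from GENCODE M1 transcripts on NCBIM37. The longest run that Sall1 shared with Sall2 was 17 bases and with Sall4 21 bases. The longest shared with Sall3 was 38 bases, and 3 of the 5217 distinct stretches of 36 bases in Sall1 occurred in Sall3, but 0 of 5203 stretches of 50 bases did. Read length is not given in the sources used here.

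The 250 bases before the annotated start of Sall1 and of Wt1 are shown. The inserted BAC adds a Sall1 coding sequence under the Wt1 promoter, beside the resident Sall1 gene with its own promoter. Both are from NCBIM37 and read in the direction of transcription, Sall1 at chr8:91568062-91568311 on the minus strand and Wt1 at chr2:104966436-104966685 on the plus strand. Capitals mark the motif CCGCCC, searched on both strands.
Sall1: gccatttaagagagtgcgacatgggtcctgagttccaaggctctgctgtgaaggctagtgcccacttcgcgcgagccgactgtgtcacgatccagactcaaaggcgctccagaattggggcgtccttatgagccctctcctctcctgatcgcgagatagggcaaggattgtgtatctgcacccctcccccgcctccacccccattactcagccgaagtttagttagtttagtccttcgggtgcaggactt
Wt1: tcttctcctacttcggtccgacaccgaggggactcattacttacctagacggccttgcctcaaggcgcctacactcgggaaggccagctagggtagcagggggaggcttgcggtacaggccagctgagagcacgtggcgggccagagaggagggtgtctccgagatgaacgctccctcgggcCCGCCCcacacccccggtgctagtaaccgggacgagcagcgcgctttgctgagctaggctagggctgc

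The Sall1 window held 56.4% G and C and 13 CpG dinucleotides, and the Wt1 window 64.8% and 18, against medians of 55.2% and 10 over 19878 promoters of the same length. CCGCCC occurred 1 time before Wt1 and 0 times before Sall1, and 42.7% of all these promoters hold it. Among the paralogs, the window before Sall3 was the richest in CpG, with 39 and 77.2% G and C, and that before Sall2 the poorest, with 3 and 31.2%. The window before Sall4, taken from the start of a coding transcript inside the gene's outer bounds, had 9 and 51.2%. Of the family, Sall2 alone had TATAAA (1 match; 11.9% of all promoters hold it), and Sall3 alone had CCGCCC (3 matches). The motif GCGTGGGCG was found in none of these 5 windows and in 0.745% of all.

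On NCBIM37, Sall1 lies at chr8:91551147-91568061, Sall2 at chr14:52930847-52948437, Sall3 at chr18:81163115-81183317 and Sall4 at chr2:168573832-168593443, each on the minus strand. Wt1, the source of the regulatory elements, lies at chr2:104966686-105013773 on the plus strand. The annotation places the noncoding gene Gm14261 over the start of Sall4 on the opposite strand. Whether counting used the strand is not given in the sources used here, so Sall4 counts may hold reads from it.

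Sall1, the gene carried by the construct, was higher in both mutant libraries. Its counts in replicates 1 and 2 were 1243 and 1445 for the mutants and 279 and 223 for the wild type. Scaled to library size these were 113 and 96.0 CPM against 16.2 and 12.6 CPM. The lower mutant library was well above the higher wild-type library, and the groups did not overlap. Group means were 104 ± 11.8 CPM in the mutants and 14.4 ± 2.53 CPM in the wild type (SD, n = 2 each).

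The fitted change of Sall1 was a log2 fold change of 2.85 (SE 0.16, 95% interval 2.47 to 3.24), a 7.23-fold difference with an interval of 5.55 to 9.43. Its adjusted p was 0.00823 in the edgeR quasi-likelihood test, and it had the smallest p of all genes tested. In this comparison 0.013% of genes were called higher and 0.0583% in either direction. Only 0.0777% of the tested genes had a larger absolute log2 fold change. Within same-numbered replicates the log2 difference was 2.80 for number 1 and 2.93 for number 2, so the pairs lay close together. Transgene and resident gene both carry the coding sequence, and gene-level counts pool their reads.

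Sall2, the broadly expressed member, did not pass the test and had the smallest fitted difference of the family. Its counts were 758 and 896 in the mutants and 1070 and 1080 in the wild type, equal to 68.8 and 59.6 CPM against 62.2 and 61.2 CPM. The wild-type libraries fell between the 2 mutant libraries. The log2 fold change was 0.06 (SE 0.11, 95% interval -0.22 to 0.33), which leaves room for a fold of 0.861 to 1.25. The adjusted p was 1.00 in edgeR. The same-numbered differences had opposite signs, 0.15 for number 1 and -0.04 for number 2, and the fitted value was -0.052 without mutant replicate 1.

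Sall3, the member with the lowest level per exon length in both groups, was the paralog with the largest difference, and it did not pass the test. It had 176 and 245 counts in the mutants and 188 and 237 in the wild type, equal to 16.0 and 16.3 CPM against 10.9 and 13.4 CPM. Both mutant libraries were above both wild-type libraries, a pattern found in one direction or the other for 30.9% of all genes tested. The means were 16.1 ± 0.223 CPM and 12.2 ± 1.77 CPM (SD, n = 2 each).

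For Sall3 the log2 fold change was 0.40 (SE 0.17, 95% interval -0.0030 to 0.81), a fold of 1.32 with an interval of 0.998 to 1.76. The edgeR adjusted p was 0.880, and 5.82% of the tested genes had a smaller p while 13.9% had a larger absolute change. The same-numbered differences were 0.55 and 0.28, both toward the mutants. The wild-type replicates differed by 0.30 on the log2 scale, with replicate 1 the lower. Sall1 is the member with which Sall3 shares its longest run of bases, and whether any of the Sall3 counts came from Sall1 reads was not tested.

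Sall4, the stem and germ cell member, varied more between replicates than between groups. It had 1852 and 1624 counts in the mutants and 2657 and 1843 in the wild type, equal to 168 and 108 CPM against 154 and 104 CPM. In both groups replicate 1 was the higher, by 0.64 log2 units in the mutants and 0.56 in the wild type, and the groups overlapped. The log2 fold change was 0.09 (SE 0.24, 95% interval -0.49 to 0.67), so a fold between 0.712 and 1.59 lay within the interval. The edgeR adjusted p was 1.00. Within same-numbered replicates the differences were 0.12 and 0.05. The sign of the fitted value changed without mutant replicate 1 (-0.26) or wild-type replicate 2 (-0.16).

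Other signals also separated the replicate numbers, and they are given beside Sall4 because it is the member that moved furthest with them. Sall1 was also higher in replicate 1 in both groups, by 0.23 log2 units in the mutants and 0.36 in the wild type. Sall2 was higher by 0.21 and 0.02, and Sall3 was lower in both groups. The summed level of the red blood cell markers was 2861 and 796 CPM in mutant replicates 1 and 2, and 3118 and 1534 CPM in the wild-type replicates. Muscle markers summed to 24.6 and 2.99 CPM in the mutants and 183 and 6.12 CPM in the wild type. Replicate 1 was thus the higher for both, as for Sall4. The sum of the 5 germ cell markers, most of it Dazl and Ddx4, was lower in replicate 1, at 1294 and 1444 CPM in the mutants and 1293 and 1424 CPM in the wild type. Singly, Dazl and Ddx4 were lower in replicate 1 in both groups, Dppa3 was higher in both as Sall4 was, and Pou5f1 and Mael were mixed. The part of these in the Sall4 values was not tested. In bulk tissue, fewer cells of a type and less RNA per cell cannot be told apart.

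Wt1 itself, whose elements drive the construct, was at 341 and 292 CPM in the mutants and 309 and 309 CPM in the wild type. The mutant libraries lay on either side of the wild-type ones, with a log2 fold change of 0.03 (SE 0.10, 95% interval -0.21 to 0.27). The ratio of Sall1 to Wt1 counts was 0.331 and 0.329 in the mutants against 0.0524 and 0.0408 in the wild type. The mutant ratios nearly coincided although Sall1 and Wt1 each differed between these libraries. This was not particular to Wt1. Mutant replicate 1 exceeded mutant replicate 2 by 0.23 log2 units for Sall1, 0.22 for Wt1 and 0.21 for Sall2. The log2 ratio differed by 2.83 between the groups (exact permutation test, two-sided, p = 0.333, the smallest that 2 against 2 libraries allow).

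**Figure D1:**
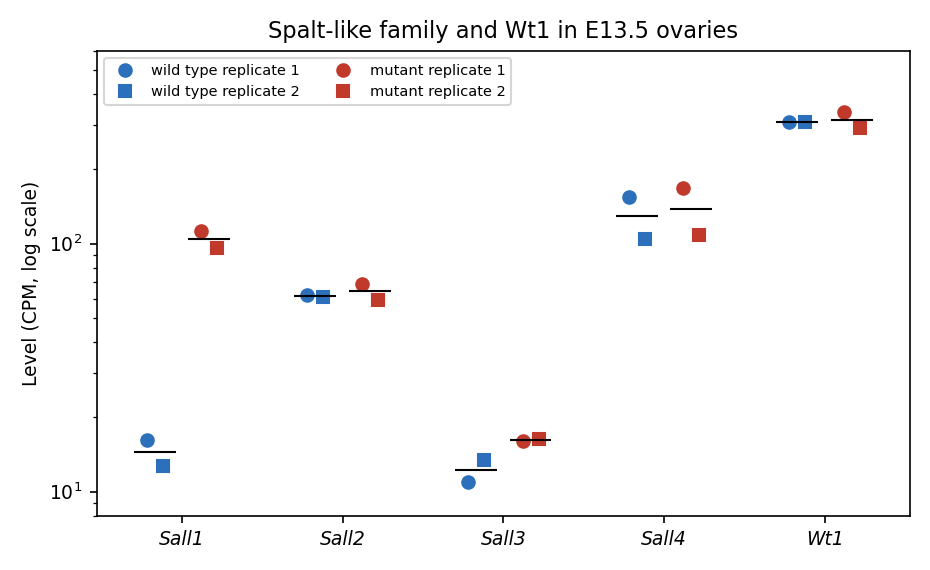
Level of each member and of Wt1 in the 4 libraries, in CPM on a log axis, with circles for replicate 1, squares for replicate 2, blue for wild type, red for mutants and a line at each group mean. Sall1 rose from 14.4 to 104 CPM, whereas the wild-type and mutant points of Sall2, Sall4 and Wt1 overlap and those of Sall3 lie narrowly apart.

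**Figure D2:**
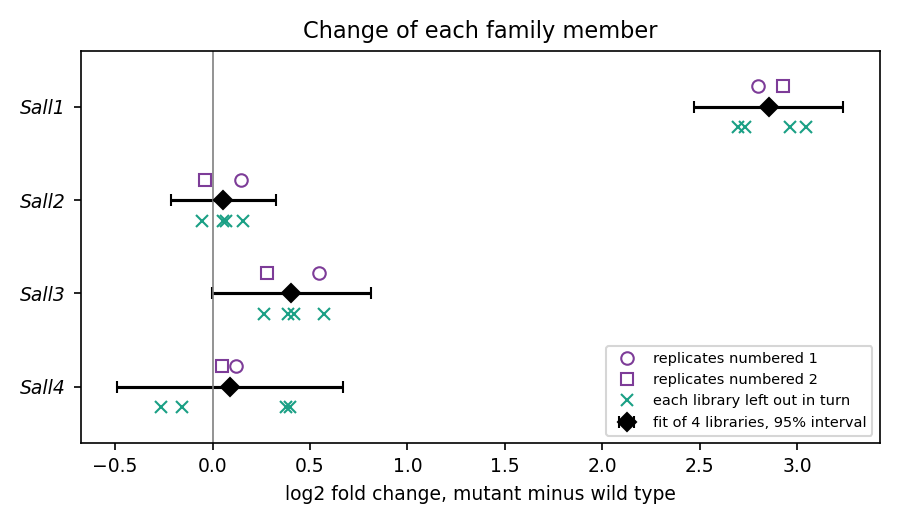
Log2 fold change of each member, mutant minus wild type, from the fit of 4 libraries (diamond, with its 95% interval), between same-numbered replicates (open symbols) and with each library left out in turn (crosses). The interval of Sall1 runs from 2.47 to 3.24, and those of Sall2, Sall3 and Sall4 include 0.

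Dividing CPM by exon length (the union of annotated exons in kilobases) allowed the members to be ordered. In the wild type, Sall4 came first at 23.4 ± 6.39 CPM per kilobase, then Sall2 at 11.4 ± 0.129, Sall1 at 2.75 ± 0.482 and Sall3 at 1.77 ± 0.257 (SD, n = 2 each). Every neighbour in this order had separate library ranges. The steps were 2.06-fold from Sall4 to Sall2, 4.13-fold from Sall2 to Sall1 and 1.55-fold from Sall1 to Sall3.

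In the mutants Sall1 moved past Sall2 to second place. Sall4 was at 24.9 ± 7.68 CPM per kilobase and Sall1 at 19.9 ± 2.25. Their library ranges overlapped, so this order is not resolved on the scale of exon length. Sall2 followed at 11.8 ± 1.20, 1.68-fold below Sall1 with ranges apart, and Sall3 at 2.34 ± 0.0324, 5.04-fold below Sall2. Among 13713 tested genes with an annotated length, Sall1 stood at percentile 29.1 in the wild type and 75.8 in the mutants on this scale. Sall2 stood at percentiles 60.2 and 61.5, Sall3 at 23.1 and 26.7, and Sall4 at 79.6 and 81.1. Wt1 stayed above the family, at percentiles 92.2 and 92.6. The construct carries only the coding sequence of Sall1, so the steps and percentile of Sall1 in the mutants depend on the length used. Per kilobase of the longest coding sequence, the mutant means were 43.1 CPM for Sall4 and 26.3 for Sall1. Sall2 followed at 19.9 and Sall3 at 4.31, in the same order.

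Sall1 made up 30.9% (95% Wilson interval 29.4 to 32.3) of the family's counts in mutant replicate 1 and 34.3% (32.9 to 35.8) in mutant replicate 2. In the wild type it made up 6.65% (5.94 to 7.45) and 6.59% (5.80 to 7.48). The mean difference was 26.0 percentage points (exact permutation test, two-sided, p = 0.333, the smallest possible). The shares of Sall4 were 46.0% and 38.6% in the mutants and 63.4% and 54.5% in the wild type. Those of Sall2 were 18.8% and 21.3% against 25.5% and 31.9%. Shares must sum to a whole, so a lower share of a paralog here is no fall in its level.

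**Figure D3:**
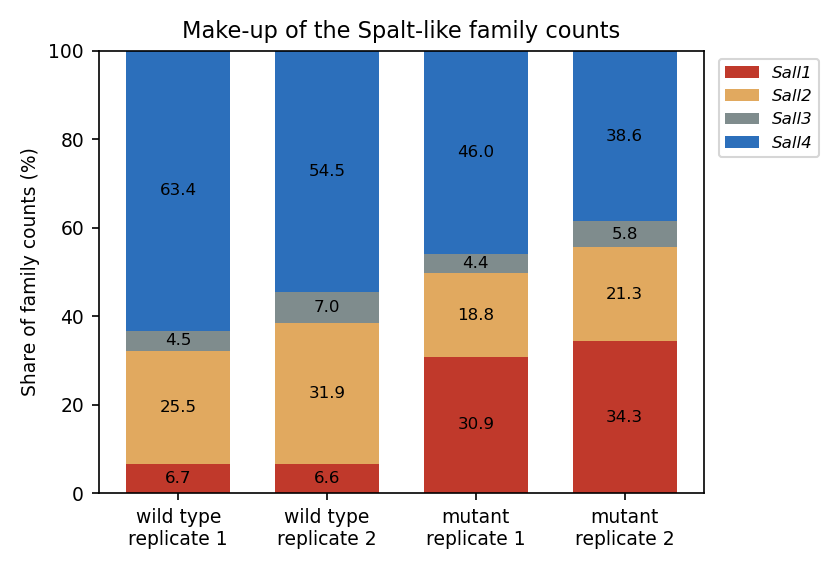
Share of the counts of the 4 members taken by each member, in percent, in the 4 libraries. Sall1 takes 6.65% and 6.59% in the wild-type libraries and 30.9% and 34.3% in the mutants.

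The summed level of the 3 paralogs overlapped between the groups. Sall2, Sall3 and Sall4 together were at 253 and 184 CPM in the mutants and 228 and 179 CPM in the wild type. The means were 218 ± 48.8 and 203 ± 34.3 CPM (SD, n = 2 each; exact permutation test, two-sided, p = 0.667). The ratio of Sall2 to Sall4 counts was 0.409 and 0.552 in the mutants and 0.403 and 0.586 in the wild type, following the replicate number. The ratio of Sall3 to Sall2 was 0.232 and 0.273 against 0.176 and 0.219, higher in both mutants (exact permutation test, two-sided, p = 0.333, the smallest possible). The ratio of Sall3 to Sall4 was 0.0950 and 0.151 against 0.0708 and 0.129, and overlapped.

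NuRD subunits, the partners of the shared motif, showed small differences. Of 15 listed genes 14 were tested and 0 were called in edgeR, against 0.0583% of all genes. An unadjusted p under 0.05 in edgeR was found for 0 of them, against 878 of 15442 genes. DESeq2 also called 0. Their median log2 fold change was -0.03, against -0.00088 over all genes. The most abundant were Rbbp7 (0.02) and Rbbp4 (-0.07), histone chaperones, and the deacetylase Hdac2 (0.00, with a sign that changed with the scaling). The largest differences were -0.18 for the remodeller Chd3 and 0.16 for Mta3 on the log2 scale. Chd4 was listed at 0 in every library. The annotation used for counting is not given, so this is not read as absence of the transcript. In 4 of the 14 both mutant libraries were below both wild-type ones, and in 0 above. Over all 15442 genes tested, 2325 were below in this way and 2442 above, which makes 30.9% in either direction.

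Genes that act with Sall4 in germ cells and pluripotency were also without a call. All 18 listed genes were tested, 0 were called in edgeR or DESeq2, and 0 had an unadjusted p under 0.05 in edgeR. Over all genes edgeR called 0.0583%, and 878 of 15442 had an unadjusted p under 0.05. A count of 0 in a list of this size is thus no result about it. The median log2 fold change was 0.11, with 12 above 0 and 6 below. The most abundant were the receptor Kit at 0.19 (SE 0.09), the RNA-binding factor Lin28a at -0.11 (SE 0.13) and Dppa3 at 0.12 (SE 0.12). Tfap2c, a germ cell specification factor, was at 0.24 (SE 0.24) and Zbtb16 at 0.71 (SE 0.46), the latter on 19 to 34 counts per library. The pattern of Sall4 across replicates recurred in 10 of the 18, which were higher in replicate 1 than replicate 2 in both groups, against 1 that was lower in both. It was not particular to this list. Of the 14 NuRD genes tested, 8 were higher in both groups and 3 lower in both. Of the 16 nephron progenitor genes tested, 7 were higher in both and 3 lower in both.

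The nephron progenitor list holds genes with which Sall1 is expressed in the embryonic kidney. Of 19 listed, 16 were tested and 0 were called in edgeR (DESeq2 called 1, Itga8, lower in the mutants), while 5 had an unadjusted p under 0.05. Over all genes edgeR called 0.0583%, and 878 of 15442 had an unadjusted p under 0.05 in edgeR. DESeq2 called 105 of the 22242 genes with at least 1 count, but some of these, Crym among them, had no adjusted p there. The median log2 fold change was 0.02. Six2, which maintains nephron progenitors, had 25 and 19 counts in the mutants and 30 and 24 in the wild type, a low level in all libraries. Wnt4, which is also an ovarian somatic gene, was at a log2 fold change of 0.01 (SE 0.13).

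The 5 with an unadjusted p under 0.05 included Crym, described below, and 2 named after their values were seen, Pax8 and Kif26b. Pax8, a factor of kidney tubule formation, had 153 and 266 counts in the mutants and 156 and 160 in the wild type, or 13.9 and 17.7 CPM against 9.07 and 9.07 CPM. Its log2 fold change was 0.80 (SE 0.19, edgeR adjusted p = 0.372). Itga8, an integrin of the kidney mesenchyme, was at 52.4 and 59.6 CPM against 79.6 and 86.6 CPM, a log2 fold change of -0.57 (SE 0.11, edgeR adjusted p = 0.277).

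Kif26b, a kinesin of the same mesenchyme, had a log2 fold change of -0.77 (SE 0.20, edgeR adjusted p = 0.459), and Hoxd11, a homeobox factor of kidney patterning, one of -1.04 (SE 0.41, edgeR adjusted p = 0.848). Kif26b was called without mutant replicate 1 (-1.07, edgeR adjusted p = 0.0159), and Hoxd11 was at -0.45 without wild-type replicate 1, where it had 100 counts against 51 in wild-type replicate 2. Crym had 3 and 2 counts in the mutants and 26 and 22 in the wild type, a ratio of 0.139 with an exact counting interval of 0.0433 to 0.348, and its edgeR adjusted p was 0.301. Crym passed the filter on low counts through its wild-type libraries only, so its difference is a description and supports no count. Of the other 4, Itga8, Kif26b and Hoxd11 were lower in both mutant libraries and Pax8 was higher, the direction of Sall1. Of the list, 5 of 16 had groups that did not overlap, near the 30.9% of all genes, but these are the same 5 and include Crym.

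Markers of tissues that could carry Sall1 into a dissected ovary, and of the ovary's own somatic cells, are given beside Sall1. The 6 mesonephric duct and tubule markers summed to 167 and 178 CPM in the mutants and 151 and 175 CPM in the wild type. Emx2 alone supplied 129 to 152 CPM of each sum. Cdh16, at 2.18 and 6.38 CPM against 0.639 and 3.40 CPM, was higher in the mutants within each replicate number, as Pax8 was. Pax2, at 0.998 and 0.665 CPM against 1.28 and 0.963 CPM, was lower within each, and Gata3, Lhx1 and Emx2 were mixed. The 3 kidney progenitor markers summed to 17.3 and 35.4 CPM against 27.3 and 28.7 CPM, overlapping between groups. Most of each sum was Cited1, at 12.8 and 32.9 CPM against 24.0 and 24.7 CPM. Six2 and Eya1 were each at 2.27 and 1.26 CPM in mutant replicates 1 and 2, the opposite direction to Cited1. Of the ovary's own cells, the 4 pre-granulosa markers summed to 465 and 469 CPM against 398 and 439 CPM. The 3 interstitial markers summed to 264 and 207 CPM against 376 and 339 CPM. All 4 pre-granulosa markers had a log2 fold change above 0, from 0.01 to 0.59 (Foxl2). All 3 interstitial ones were below 0, from -1.10 (Tcf21) to -0.47. None of these was called in edgeR, against 0.0583% of all genes. The part of these in the Sall1 value was not tested.

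**Figure D4:**
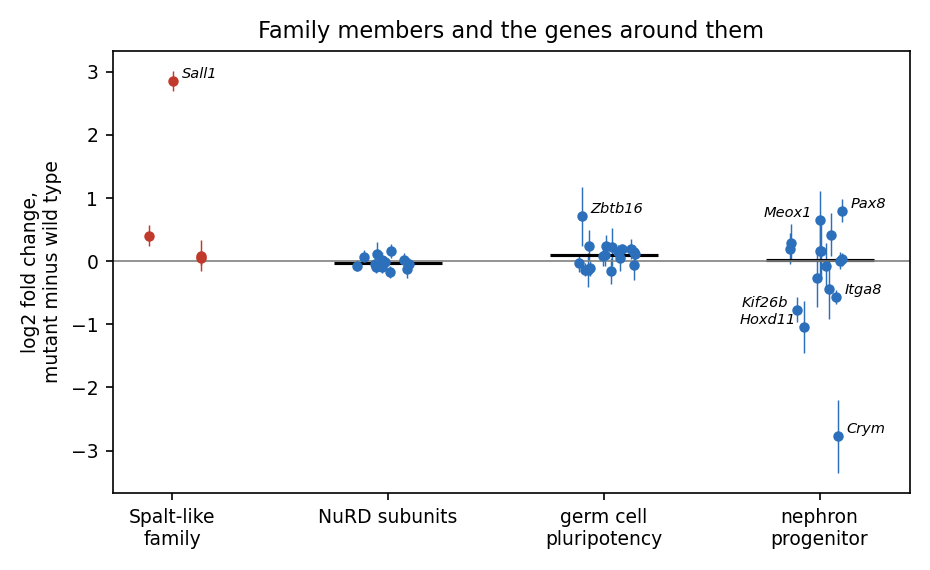
Log2 fold change, mutant minus wild type, of each tested gene of the family and of the lists around it, with bars of 1 SE and a line at each list's median. Labels mark genes beyond 0.5, and Sall1 at 2.85 stands above every gene of the other lists.

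No gene next to a member was called. The 3 nearest tested genes on each side of each member gave 24 neighbours, of which 0 were called in edgeR (DESeq2 also called 0), 0 had an unadjusted p under 0.05 in edgeR, and 6 had groups that did not overlap. Over all genes 0.0583% were called, 878 of 15442 had an unadjusted p under 0.05, and 30.9% did not overlap. Their log2 fold changes ran from -0.32 to 0.30. The nearest to Sall1 were Cyld, 275 kb away, at 0.06 (SE 0.24) and Tox3, 1203 kb away, at -0.32 (SE 0.23). Those of Sall2 were Mettl3 (6.04 kb) at -0.01 and Dad1 (1907 kb) at 0.03. Those of Sall3 were Nfatc1 (253 kb) at -0.27 and Mbp (1461 kb) at 0.08, and those of Sall4 were Atp9a (5.92 kb) at 0.11 and Zfp64 (125 kb) at -0.27.

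**Figure D5:**
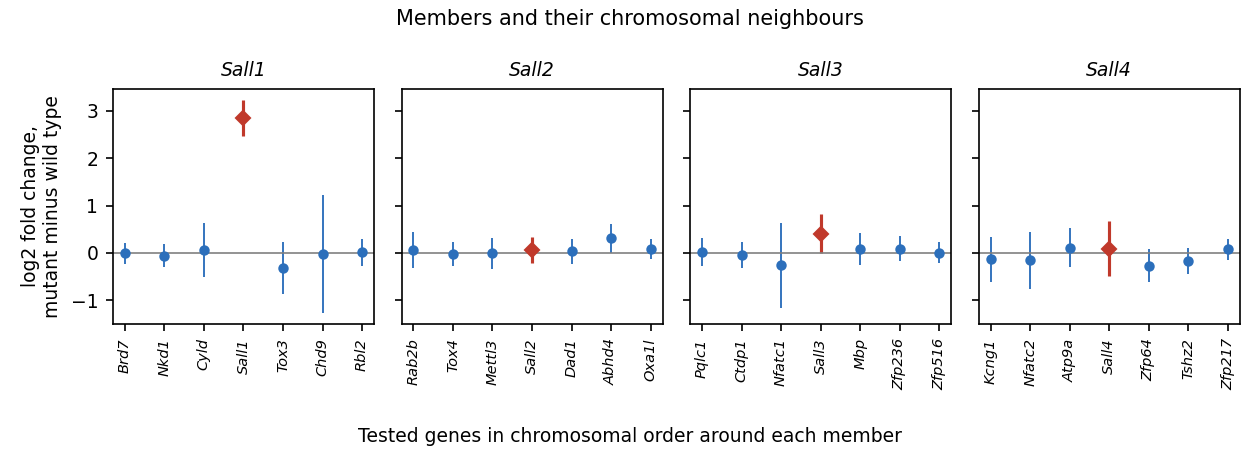
Log2 fold change, mutant minus wild type, with 95% intervals, for each member (red) and its 3 nearest tested genes on each side (blue), in chromosomal order. The neighbours range from -0.32 to 0.30, far below Sall1 at 2.85.

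Profiles across the 4 libraries were compared by the root mean square difference of centred log2 CPM over 15441 other genes. For Sall1 the nearest was F2rl1, a protease-activated receptor, at 0.289, with 31 and 47 counts in the mutants and 7 and 8 in the wild type. Slco1a4, an organic anion transporter, followed at 0.326 with 24 and 30 counts against 8 and 4, and Gbp5, a guanylate-binding protein, at 0.336 with 13 and 21 counts against 4 and 1. None of the 3 was called (edgeR adjusted p of 0.138, 0.266 and 0.319). DESeq2 called F2rl1 (adjusted p = 0.0394) and the likelihood ratio test called all 3. These genes were chosen for a profile like that of Sall1, so a higher mutant level was fixed in advance. They also passed the filter on low counts through their mutant libraries only, so these calls support nothing. The number of genes within 0.2 of Sall1 was 0. The profiles of the paralogs were common ones. Within 0.2 there were 9672 genes for Sall2, nearest Top1 at 0.0082, 2457 for Sall3, nearest Narg2 at 0.018, and 1239 for Sall4, nearest Hmox1 at 0.012.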

How the data were processed

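RNA of 4 libraries from E13.5 ovaries was analysed, 2 mutant and 2 wild type. The authors mapped reads with STAR 2.6.1d, counted them per gene with the R function summarizeOverlaps, and deposited raw counts. The submitters' processing notes name the build mm9 and DESeq2. The annotation, strand setting and read length are not given in the sources used here. All columns matched a library by genotype and replicate number, leaving 0 unused.

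The main test was the quasi-likelihood test of edgeR 4.0.16 in R 4.3.3, after filterByExpr (15442 genes left) and TMM scaling, with Benjamini-Hochberg adjustment over all tested genes, at an adjusted p under 0.05, with genotype as the only factor. The study used DESeq2. Here DESeq2 1.42.0 was an alternative, beside RLE and upper-quartile scaling, no filter, at least 10 counts in every library, a replicate block, the likelihood ratio test, and each library left out. Profiles used log2 CPM with a prior count of 2. The fits were tested on simulated data. Libraries of a group differed beyond sampling noise (chi-square per degree of freedom 13.2 in the wild type and 11.8 in the mutants), so none was taken for a repeat deposit of another. This does not show that they are biological replicates. Total counts were 11036313 to 17869840.

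Positions, exon unions and promoters came by symbol from GENCODE M1 on NCBIM37, which had a model for 21602 of the 34682 symbols (62.3%). The members, gene lists and tests were chosen with earlier results of these data known, and the lists are no independent support. Named genes were the members, Wt1, called list members, the 3 most abundant and 2 most changed of each list around the family, the 2 most abundant of each marker list (given here within the list's sum, apart from Dazl and Fst), the nearest tested gene on each side, and the nearest profiles (3 for Sall1, 1 for each paralog). Markers not described above gave these summed CPM in mutant 1, mutant 2, wild-type 1 and wild-type 2: endothelial 365, 338, 382 and 384, macrophage 39.8, 24.1, 26.3 and 24.1, neural and neural crest 20.0, 18.7, 30.7 and 24.8, Sertoli 5.90, 5.32, 4.53 and 5.04, and meiotic germ cell 333, 437, 436 and 392.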

Additional observations from a re-analysis of the deposited data

How the results depend on the processing

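Sall1 passed the threshold under every alternative run, with a log2 fold change of 2.70 to 3.04 when each library was left out, and no alternative called Sall2, Sall3 or Sall4. With a library left out, the lone library is assumed to vary like the other group. The ranges then were -0.052 to 0.16 for Sall2, 0.27 to 0.57 for Sall3 and -0.26 to 0.40 for Sall4. Sall4 turned below 0 without mutant replicate 1 (-0.26) or wild-type replicate 2 (-0.16), and Sall2 without mutant replicate 1 (-0.052). Sall1's gain in share ran from 24.2 to 27.7 percentage points, and was 27.0 per exon kilobase and 27.3 without Sall3. The log2 ratio of Sall2 to Sall4 ran from -0.30 to 0.24 and that of Sall3 to Sall4 from -0.10 to 0.76.

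The labels do not say what a replicate number marks. Same-numbered columns carry consecutive library numbers, and their deviations from the group means correlated at 0.481 across genes. With a replicate block, 385 genes were called in place of 9. Sall1 was at 2.86, Sall2 at 0.05, Sall3 at 0.41 (edgeR adjusted p = 0.293) and Sall4 at 0.09. The 95% interval of Sall3 then was 0.068 to 0.75, which excludes 0, unlike that without the block. Those of Sall2 (-0.16 to 0.26) and Sall4 (-0.089 to 0.26) included 0. The block called 1 nephron progenitor gene higher (Pax8) and 3 lower (Itga8, Kif26b and Crym). The block also called F2rl1, Slco1a4 and Gbp5, which were chosen for their likeness to Sall1, so these calls support nothing. DESeq2 called 105 genes and 1 nephron progenitor gene lower, the likelihood ratio test 134, no filter 28 and at least 10 counts 19, and leaving out a library gave 4 to 130. The cause of these differing numbers was not tested. Of the 5 nephron progenitor genes with an unadjusted p under 0.05, the likelihood ratio test called Itga8 (adjusted p = 0.0177) and Crym, both lower. It did not call Pax8, Kif26b or Hoxd11. Crym passed the filter through its wild-type libraries only, so its call supports nothing.

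Of 335 alternatives with an adjusted p for 31 other named genes, 291 kept direction and side of the threshold and 29 reversed. The ranges with a library left out were -0.084 to 0.14 for Wt1, -0.084 to 0.11 for Rbbp7, -0.042 to 0.042 for Hdac2, -0.26 to 0.026 for Lin28a, -0.0076 to 0.24 for Dppa3, -0.029 to 0.59 for Tfap2c, -0.16 to 0.21 for Wnt4, -0.42 to 0.42 for Cyld, -0.14 to 0.11 for Mettl3, -0.055 to 0.13 for Dad1, -1.04 to 0.26 for Nfatc1, -0.071 to 0.22 for Mbp, -0.12 to 0.33 for Atp9a, -0.069 to 0.14 for Top1 and -0.28 to 0.38 for Hmox1. Hdac2 was -0.0027 with DESeq2, -0.0098 with upper-quartile scaling, -0.0063 with no filter and -0.00016 with at least 10 counts, and Wnt4 -0.0030 with upper-quartile scaling. Sall3 had 176 to 245 counts per library and Sall1 223 and 279 in the wild type, while the widest SE of the family was that of Sall4 (0.24).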
